A study of Setaria viridis with 23 samples.

Results

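SvAn1 (Sevir.9G265300.1) and SvTs2 (Sevir.9G439800.1) are the Setaria viridis orthologs of the maize genes anther ear 1 and tassel seed 2. They were chosen by name, as 2 of the 35214 genes in the count table, and both passed the filter on low counts that 21180 genes passed. They were measured by RNA-seq of polyA RNA in young inflorescences dissected from A10.1 plants, with no mutant or treatment, at 6 ages given as days after sowing (DAS): 10, 12 and 14 DAS in one group of libraries, and 15, 16 and 18 DAS in another. There are 4 libraries at every age but 12 DAS, which has 3. Each library is a pool of primordia, so errors and p-values describe the spread between pools and not between plants.

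In maize, anther ear 1 encodes an ent-copalyl diphosphate synthase, the enzyme of an early committed step of gibberellin synthesis. Mutants of it are dwarf and form anthers in the normally female ear. Tassel seed 2 encodes a short-chain dehydrogenase that is needed for the pistil primordia to abort in the tassel, and its mutants form kernels there. Both maize genes therefore bear on which floral organs develop in unisexual florets, while the fertile florets of S. viridis are bisexual. These roles are background from maize and were not measured here.

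The libraries held from 7630744 to 24467495 counts. Levels are given in CPM (counts scaled to library size, after TMM normalization). Before that normalization, 1 CPM corresponded to 7.63 counts in the shallowest library and 24.47 in the deepest. Replicates 1 and 2 of 15 DAS were the shallowest, with 8964218 and 7630744 counts, and each correlated slightly better with a 16 DAS library (Spearman's rho 0.9882 and 0.9869) than with any other 15 DAS library (0.9874 and 0.9851). Paired-end sequencing, reduced to its first read, gave the libraries up to 14 DAS, and single-end sequencing gave those from 15 DAS on. These 2 groups are called runs here, by their read layout alone. The sample labels do not say whether the libraries of a group were sequenced together. A difference between 14 and 15 DAS, or between any earlier and any later stage, therefore cannot be told apart from the change of run. All 5 inflorescence markers passed the filter (SvKn1, SvRs1, SvLfy, SvRa2 and SvBd1), with a summed level of 253 to 1003 CPM per library. SvBd1, a spikelet meristem gene, was almost undetected at 10 DAS (0.0477 CPM) and 12 DAS (0.0188 CPM). Of the 5 leaf markers 3 passed the filter, with a summed level over all 5 of 42.0 to 90.8 CPM.

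SvAn1 was low through 12 DAS, higher at 14 DAS, and highest from 15 to 18 DAS. Its levels were 4.39, 3.62, 4.12 and 3.05 CPM at 10 DAS, 2.98, 4.12 and 2.65 CPM at 12 DAS, and 8.91, 8.24, 6.70 and 7.94 CPM at 14 DAS. In the single-end run they were 27.1, 24.9, 37.1 and 39.8 CPM at 15 DAS, 28.2, 23.8, 25.1 and 35.7 CPM at 16 DAS, and 22.5, 31.5, 24.4 and 26.2 CPM at 18 DAS. Every 14 DAS library exceeded every library of 10 and 12 DAS, and every library of the 3 later stages exceeded every 14 DAS library, while the 3 later stages overlapped. Such a separation upward was seen in 17.2% of tested genes for 14 vs 10 DAS, 10.0% for 14 vs 12 DAS and 21.9% for 15 vs 14 DAS. The stage means ± SD were 3.79 ± 0.593, 3.25 ± 0.772, 7.95 ± 0.925, 32.2 ± 7.33, 28.2 ± 5.34 and 26.1 ± 3.88 CPM in stage order (n = 4, but 3 at 12 DAS). These values rest on 43 to 621 counts per library.

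SvTs2 climbed from 10 to 14 DAS, overlapped the 14 DAS range at each later stage, and had its highest mean at 18 DAS. It had 0.839, 1.26, 1.45 and 1.28 CPM at 10 DAS, 3.60, 2.95 and 2.38 CPM at 12 DAS, and 7.80, 6.10, 6.45 and 7.89 CPM at 14 DAS. Later it had 6.15, 7.20, 4.42 and 4.67 CPM at 15 DAS, 5.23, 6.71, 7.77 and 6.11 CPM at 16 DAS, and 10.0, 5.60, 9.28 and 8.66 CPM at 18 DAS. The libraries of 10, 12 and 14 DAS formed 3 separate ranges, and those of the 4 stages from 14 DAS on overlapped. Of tested genes 11.7% were separated upward for 12 vs 10 DAS and 10.0% for 14 vs 12 DAS. The stage means ± SD were 1.21 ± 0.261, 2.98 ± 0.609, 7.06 ± 0.917, 5.61 ± 1.31, 6.46 ± 1.07 and 8.39 ± 1.94 CPM in stage order (same n). They rest on 18 to 140 counts per library, fewer than for SvAn1. All 46 values of the 2 genes were whole numbers in the deposited table, so no fractional assignment of a read to another transcript is visible in them.

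**Figure D1:**
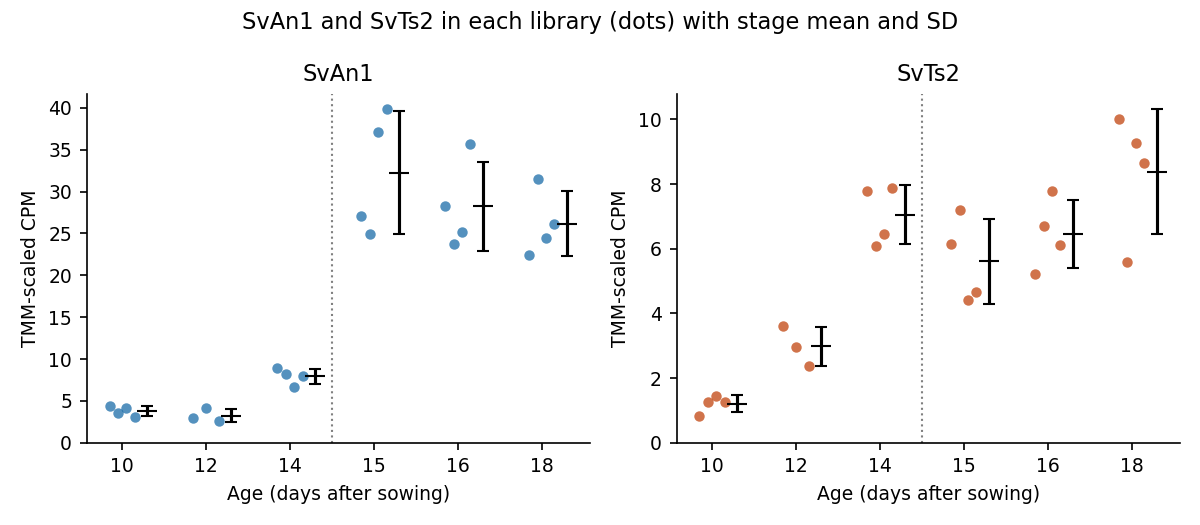
TMM-scaled CPM (vertical axis, from 0, a separate scale for each gene) of SvAn1 (left) and SvTs2 (right) in each library, by age in days after sowing; dots are libraries, black bars the stage mean and SD, and the dotted line marks the change of sequencing run. SvAn1 lies between 2.65 and 8.91 CPM left of the line and between 22.5 and 39.8 CPM right of it, whereas SvTs2 lies between 6.10 and 7.89 CPM at 14 DAS and between 4.42 and 10.0 CPM right of the line.

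The table gives no transcript lengths, so the CPM levels of the 2 genes are not compared with each other. Each was instead set against its own highest stage mean, which for both lay in the other run than 10 to 14 DAS, so stage and run cannot be told apart in these shares. At 14 DAS SvTs2 stood at 84.2% of its 18 DAS mean, and SvAn1 at 24.7% of its 15 DAS mean. At 10 DAS the shares were 14.4% for SvTs2 and 11.8% for SvAn1. In bulk tissue, more cells that express a gene and more RNA per cell cannot be told apart.

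Both genes differed among the 6 stages by edgeR's quasi-likelihood F-test with Benjamini-Hochberg adjustment over all tested genes (adjusted p = 2.40e-13 for SvAn1 and 2.41e-09 for SvTs2), as did 88.3% of all tested genes. Among 10, 12 and 14 DAS both again passed (edgeR adjusted p = 1.74e-05 for SvAn1 and 2.06e-08 for SvTs2), against 35.7% of tested genes. Among 15, 16 and 18 DAS SvAn1 did not pass (edgeR adjusted p = 0.210) and SvTs2 narrowly did (0.0335), against 57.7% of tested genes. With replicates 1 and 2 of 15 DAS left out, SvAn1 passed that last test as well (edgeR adjusted p = 0.0153). The SvTs2 call was lost when any of 5 single libraries was left out (15 DAS replicates 3 and 4, and 18 DAS replicates 1, 3 and 4), with edgeR adjusted p up to 0.118. It was also lost with the replicate number as a block (edgeR adjusted p = 0.0511), with library size alone (0.0596) and with all genes of at least 1 count (0.0537).

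In the first interval, 12 vs 10 DAS, SvTs2 rose and SvAn1 did not pass the test. SvTs2 averaged 2.98 CPM at 12 DAS and 1.21 CPM at 10 DAS, a log2 fold change of 1.32 (SE 0.25, edgeR adjusted p = 0.00088). The log2 fold change of SvAn1 was -0.26 (SE 0.22, edgeR adjusted p = 0.477). One of the 2 genes was thus called higher, where 6.61% of all tested genes were.

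In the second interval, 14 vs 12 DAS, both genes rose by similar factors. SvAn1 averaged 7.95 CPM at 14 DAS and 3.25 CPM at 12 DAS, a 2.48-fold difference (log2 1.31, SE 0.21, edgeR adjusted p = 0.000416). SvTs2 averaged 7.06 CPM at 14 DAS and 2.98 CPM at 12 DAS, a 2.37-fold difference (log2 1.24, SE 0.22, edgeR adjusted p = 0.00133). Only 2.31% of tested genes were called higher in this interval, the smallest share of the 5 successive intervals. Over both intervals together, 14 vs 10 DAS, SvTs2 rose 5.93-fold (log2 2.57, SE 0.22, edgeR adjusted p = 5.68e-09) and SvAn1 2.08-fold (log2 1.05, SE 0.18, edgeR adjusted p = 7.64e-05), where 20.7% of tested genes were called higher. The comparisons with 12 DAS and 10 DAS share libraries and are not independent of each other. Marker levels moved over the same interval. The summed inflorescence markers were at 754 to 1002 CPM per library at 14 DAS and 253 to 421 CPM at 10 DAS, and the summed leaf markers at 43.7 to 49.1 CPM at 14 DAS and 66.7 to 90.8 CPM at 10 DAS. The leaf sum was mostly Sevir.1G101700, at 67.4 CPM at 10 DAS and 41.8 CPM at 14 DAS. By the study's microscopy, secondary and tertiary branch meristems formed between 12 and 14 DAS. Whether the share of leaf tissue changed was not tested. Nor was the part of any such change in the rise of either gene.

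Between 15 and 14 DAS, where the run also changed, SvAn1 showed its largest step. It averaged 32.2 CPM at 15 DAS and 7.95 CPM at 14 DAS, a 4.07-fold difference (log2 2.03, SE 0.17, edgeR adjusted p = 8.77e-09). SvTs2 averaged 5.61 CPM at 15 DAS and 7.06 CPM at 14 DAS and did not pass the test (log2 -0.36, SE 0.20, edgeR adjusted p = 0.128). Of all tested genes 29.4% were called higher and 27.0% lower across this step, and the stage and the run cannot be told apart in the SvAn1 difference. Marker levels moved in this step too. Of the 3 leaf markers that passed the filter 2 were called higher (1 in DESeq2) and none lower. Of the 5 inflorescence markers 2 were called lower and none higher. The part of these shifts in the SvAn1 difference was not tested. Without replicates 1 and 2 of 15 DAS the SvTs2 difference became a fall that passed the test (log2 -0.64, edgeR adjusted p = 0.0224), and without replicate 2 alone it also passed (log2 -0.49, edgeR adjusted p = 0.0476).

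Within the single-end run neither gene passed the test between successive stages. For 16 vs 15 DAS the log2 fold change was -0.20 for SvAn1 (SE 0.16, edgeR adjusted p = 0.358) and 0.23 for SvTs2 (SE 0.20, edgeR adjusted p = 0.419), and 28.6% of tested genes were called in either direction. For 18 vs 16 DAS it was -0.11 for SvAn1 (SE 0.16, edgeR adjusted p = 0.616) and 0.38 for SvTs2 (SE 0.19, edgeR adjusted p = 0.133), and 36.5% of tested genes were called. Over the whole run, 18 vs 15 DAS, SvTs2 passed the test with 8.39 CPM at 18 DAS and 5.61 CPM at 15 DAS (log2 0.60, SE 0.20, edgeR adjusted p = 0.0177), although 1 of its 18 DAS libraries lay within the 15 DAS range, and in a fit of only these stages it did not pass (log2 0.57, edgeR adjusted p = 0.0716). SvAn1 averaged 26.1 CPM at 18 DAS and 32.2 CPM at 15 DAS (log2 -0.31, SE 0.16, edgeR adjusted p = 0.120). In this comparison 22.1% of tested genes were called higher and 20.6% lower.

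**Figure D2:**
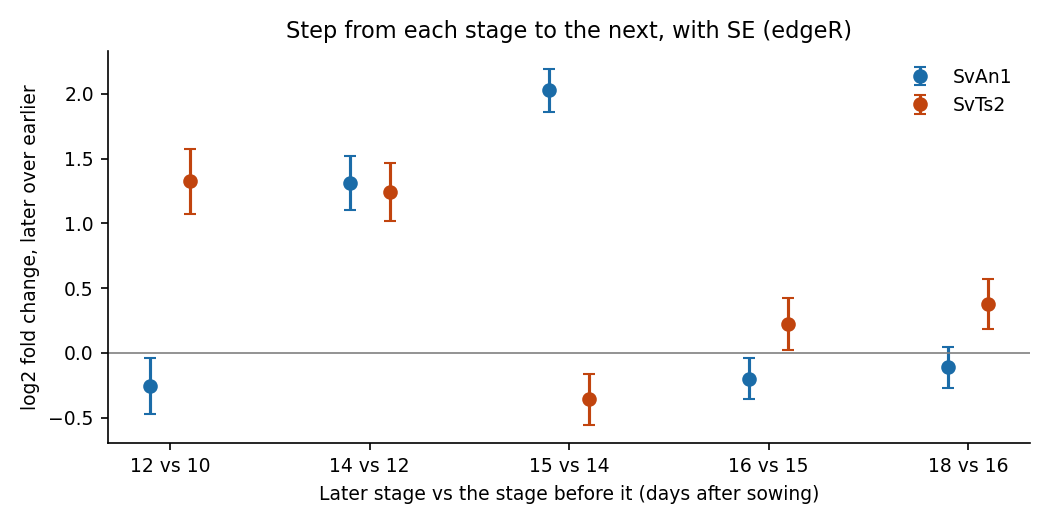
Log2 fold change of the later over the earlier stage (vertical axis) with its SE, for SvAn1 (blue) and SvTs2 (red) in each of the 5 successive intervals (horizontal axis, days after sowing). SvTs2 is high in the first and second intervals (1.32 and 1.24) and SvAn1 in the second and in the 15 vs 14 DAS interval (1.31 and 2.03), where the run also changed.

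Single libraries moved several of the late comparisons. In replicates 1 and 2 of 15 DAS SvAn1 was at 27.1 and 24.9 CPM, against 37.1 and 39.8 CPM in replicates 3 and 4, while SvTs2 was at 6.15 and 7.20 CPM, against 4.42 and 4.67 CPM. For both genes the values of replicates 1 and 2 fell within the 16 DAS range. Without them, SvAn1 was called lower at 18 than at 15 DAS (log2 -0.56, edgeR adjusted p = 0.00798) and at 16 than at 15 DAS (log2 -0.44, edgeR adjusted p = 0.0411). SvTs2 remained called higher at 18 than at 15 DAS without them (log2 0.88, edgeR adjusted p = 0.00404). The SvTs2 call at 18 vs 15 DAS was lost without 15 DAS replicate 3, 15 DAS replicate 4 or 18 DAS replicate 1 (log2 0.50, 0.53 and 0.51, edgeR adjusted p = 0.0719, 0.0606 and 0.0629), and SvTs2 was called higher at 18 than at 16 DAS without 18 DAS replicate 2, its lowest library of that stage (log2 0.53, edgeR adjusted p = 0.0355).

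Ordered by mean level, the stages of SvAn1 ran 12, 10, 14, 18, 16 and 15 DAS. Neighbours in this order that did not differ beyond their spread were 10 and 12 DAS, 16 and 18 DAS, and 15 and 16 DAS, which leaves 14 DAS separated from 10 DAS below it and from 18 DAS above it (log2 1.72 for 18 over 14 DAS, SE 0.17, edgeR adjusted p = 2.49e-08, across the runs). The stages of SvTs2 ran 10, 12, 15, 16, 14 and 18 DAS. There 12 DAS was separated from 10 DAS, and 15 DAS from 12 DAS (log2 0.89, SE 0.23, edgeR adjusted p = 0.00224, across the runs), while 15 and 16, 16 and 14, and 14 and 18 DAS were not separated (edgeR adjusted p = 0.419, 0.617 and 0.284).

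The ratio of SvTs2 to SvAn1 counts in the same library, which needs no scaling of library size, sets the profiles of the 2 genes against each other. The mean log2 ratio ± SD was -1.65 ± 0.493 at 10 DAS, and it stood at -0.12 ± 0.373 and -0.17 ± 0.190 in the 12 and 14 DAS libraries. After the change of run the 15 DAS libraries had -2.51 ± 0.660, the 16 DAS libraries -2.12 ± 0.427 and the 18 DAS libraries -1.66 ± 0.578. The same primary transcripts were counted at every stage, so the ratio can be compared between stages of a run although its level cannot be read as relative abundance. An effect of the run on only 1 of the genes would not cancel in it. The ratio was 2.88-fold higher at 12 than at 10 DAS (log2 difference 1.53) and 2.78-fold higher at 14 than at 10 DAS (1.47). It was lower at 15 than at 14 DAS by 2.34 on the log2 scale, where the stage and the run cannot be told apart. Libraries did not overlap in any of these 3 comparisons. Each had p = 0.0286 in an exact two-sided permutation test, the smallest that these numbers of libraries allow, and 0.0667 after Benjamini-Hochberg adjustment over the 7 comparisons made, so none passed the adjusted threshold. For 14 vs 12 DAS the difference was -0.05 (exact permutation p = 0.886). The late differences were 0.40 for 16 vs 15 DAS, 0.46 for 18 vs 16 DAS and 0.86 for 18 vs 15 DAS (exact permutation p = 0.371, 0.200 and 0.114).

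**Figure D3:**
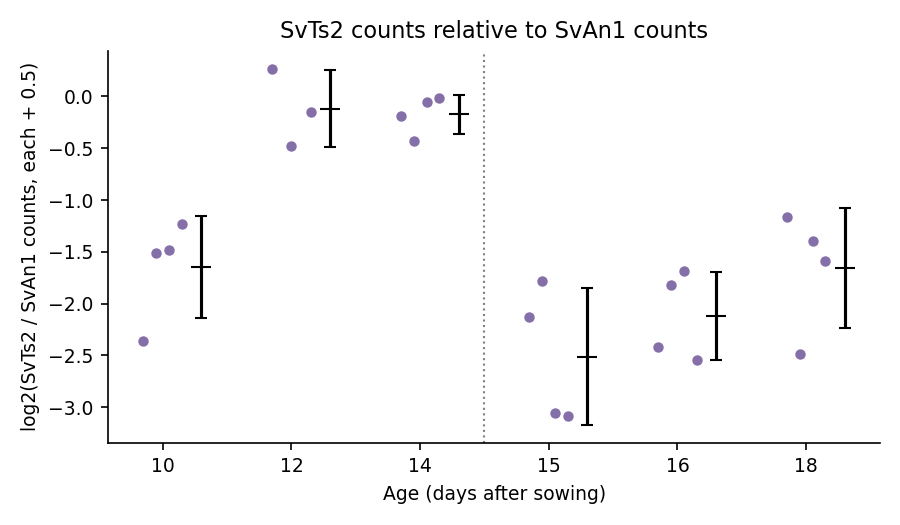
Log2 ratio of SvTs2 to SvAn1 counts, each plus 0.5 (vertical axis), in each library by age in days after sowing; dots are libraries, black bars the stage mean and SD, and the dotted line marks the change of sequencing run. All libraries of 12 and 14 DAS lie between -0.47 and 0.27, above every library of 10 DAS and of the later stages.

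To describe the label of late floral genes, the 2 genes were set beside 12 regulators of floral organs. All 12 passed the filter, and all 12 rose between 15 and 18 DAS, with a median log2 fold change of 3.00 for 18 vs 15 DAS (22.1% of tested genes were called higher), where the median over all tested genes was 0.03. Several of the 12, among them SvBde1, SvLhs1 and the OsMADS7 and OsMADS8 homologs, had counts with fractions. They may share reads with other genes, so the 12 rises may not be independent. At 14 vs 10 DAS 4 of the 12 were higher and 1 was lower (20.7% and 21.5% of tested genes), with a median of 0.64, where the median over all tested genes was 0.01. The list was drawn from a group of genes that the study formed by their profiles in these samples, so its late rise is not independent evidence of its direction. SvAn1 and SvTs2 were placed in that group too, but in other clusters than the one that held most of the 12. SvTs2 shared its cluster with SvTga1 of this list. Those clusters were also formed from these profiles, so a difference between the 2 genes and the list is not independent evidence either. SvAn1 (log2 -0.31) and SvTs2 (log2 0.60) both lay below the lowest of the 12 in 18 vs 15 DAS. For SvTs2 the label leaves out an early rise, since within the runs it rose 5.93-fold at 14 vs 10 DAS and 1.52-fold at 18 vs 15 DAS. The share of its whole increase that came before 15 DAS cannot be told apart from the change of run, and the difference between these 2 folds was not tested. SvAn1 was highest from 15 DAS on, but its increase lay between 12 and 15 DAS, partly across the change of run, and it was not higher at 18 than at 15 DAS.

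Among these 12, the B-class genes, which specify stamens and lodicules in grasses, had stage means of at most 3.55 CPM until 16 DAS. SvSi1 was at 22.5 ± 7.27 CPM at 18 DAS and 0.475 ± 0.606 CPM at 15 DAS (log2 5.37, SE 0.45, edgeR adjusted p = 1.25e-08), the largest change of the list, and SvMADS4 was at 15.3 ± 3.94 CPM at 18 DAS and 1.96 ± 0.202 CPM at 15 DAS (log2 2.97, edgeR adjusted p = 4.05e-10). The C-class genes, which act in stamens and carpels, rose by 3.91 (the OsMADS3 homolog) and 2.63 (the OsMADS58 homolog) on the log2 scale (edgeR adjusted p = 1.81e-06 and 1.28e-06). SvBde1 and the OsMADS17 homolog rose by 2.69 and 4.84 on the log2 scale (edgeR adjusted p = 3.79e-08 and 1.87e-11). The study listed both with its C-class, AGAMOUS-like genes, and they are kept apart here. The SEPALLATA-like genes, partners of the other classes in floral organ identity, rose as well (edgeR adjusted p of 2.30e-08 or lower). SvLhs1 was at 121 ± 22.2 CPM at 18 DAS and 14.6 ± 2.97 CPM at 15 DAS (log2 3.03), the OsMADS7 homolog rose by 3.39 and the OsMADS8 homolog by 3.68. The smallest change was that of SvTga1, an SBP-box gene of glume development, at 49.4 ± 6.62 CPM at 18 DAS and 27.7 ± 0.964 CPM at 15 DAS (log2 0.83, SE 0.13, edgeR adjusted p = 2.21e-05). SvTga1 was also the gene of the list whose profile over the 23 libraries was most like that of SvTs2 (Pearson r = 0.823), and SvLhs1 the one most like SvAn1 (r = 0.860). These correlations are descriptions across libraries that share stages and runs. The study placed SvTga1 and SvTs2 in the same cluster by these profiles, so their likeness is not independent evidence.

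**Figure D4:**
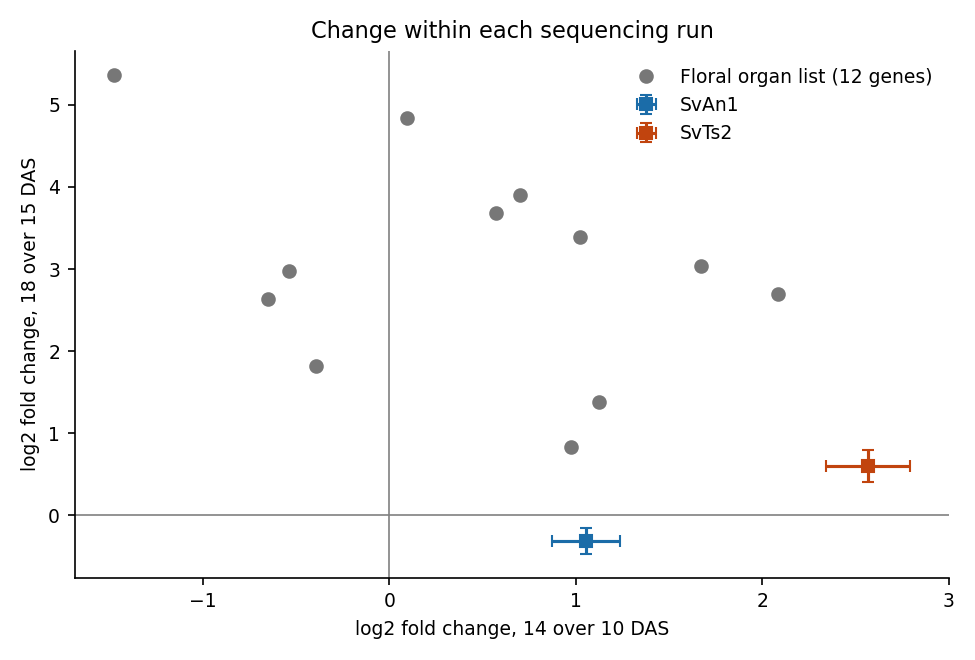
Log2 fold change of 18 over 15 DAS (vertical axis) against that of 14 over 10 DAS (horizontal axis), each among libraries of the same read layout, for SvAn1 and SvTs2 (squares, with SE) and for the 12 genes of the floral organ list (grey dots). Both squares lie below all 12 dots on the vertical axis, and SvTs2 lies right of all of them at 2.57.

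Gibberellin genes were counted because of the enzyme class of SvAn1, from annotations of the study's supplementary tables, part of which cover only genes of selected expression clusters, so that profile entered their choice. The annotations were also available here only in part. This list, and those of terpene synthases, short-chain dehydrogenases and jasmonate genes below, share both limits and are not whole families. Of 8 genes annotated for gibberellin, 7 passed the filter. At 14 vs 10 DAS 3 were higher and 3 lower, where 20.7% of tested genes were higher and 21.5% lower. The higher ones were both genes annotated gibberellin 2-oxidase 8, enzymes that deactivate gibberellins (Sevir.7G180700, log2 2.45, SE 0.33, edgeR adjusted p = 2.93e-06; Sevir.1G247200, log2 1.97, SE 0.65, edgeR adjusted p = 0.0174), and a SCARECROW-like 8 gene (Sevir.1G278400), at 12.8 ± 2.06 CPM at 14 DAS and 3.55 ± 0.806 CPM at 10 DAS (log2 1.83, edgeR adjusted p = 8.60e-09). The lower ones were gibberellin 2-oxidase 1 (log2 -2.13, edgeR adjusted p = 0.0127) and 2 genes annotated as GID1L2, a receptor-like carboxylesterase (log2 -1.05 and -2.43, edgeR adjusted p = 0.0398 and 1.98e-07). Some of these calls rest on few counts. Gibberellin 2-oxidase 1 had at most 4 counts in a library at 14 DAS and 14 at 10 DAS. Sevir.1G247200 had at most 19 at 14 DAS and 5 at 10 DAS. Gibberellin 20-oxidase, which acts late in synthesis, was at 7.35 ± 0.581 CPM at 14 DAS and 4.16 ± 2.61 CPM at 10 DAS and did not pass (edgeR adjusted p = 0.134).

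At 18 vs 15 DAS none of the 7 was higher and 2 were lower, again both gibberellin 2-oxidase 8 genes (log2 -2.14 and -2.41, edgeR adjusted p = 0.00018 and 0.00126), with a median of 0.22 for the 7. Of all tested genes 22.1% were higher and 20.6% lower there, so 2 of 7 lower is near the share over all genes. The 2-oxidase Sevir.7G180700 was at 0.479 ± 0.293 CPM at 18 DAS and 2.10 ± 0.890 CPM at 15 DAS. The other, Sevir.1G247200, was at 0.397 ± 0.0843 CPM at 18 DAS and 2.01 ± 1.46 CPM at 15 DAS. Its 15 DAS libraries ranged from 0.244 to 3.57 CPM and overlapped those of 18 DAS. The count of none higher was the same in edgeR at an unadjusted p under 0.05 and in DESeq2. Between 15 and 14 DAS, across the runs, 4 of the 7 were higher and 2 lower, where 29.4% of tested genes were higher and 27.0% lower. The eighth gene, a further GID1L2-annotated gene, did not pass the filter and had at most 3.02 CPM in any library.

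Of 4 genes found annotated as terpene synthases, the enzyme family that includes copalyl diphosphate synthases, all 4 passed the filter. They were annotated terpene synthase 14 or 21, and none as a copalyl diphosphate synthase. Sevir.1G107800 and Sevir.1G107900 had counts with fractions and adjoining locus numbers, so they may share reads and not be independent. All 4 were higher at 15 than at 14 DAS, as SvAn1 was, with a median log2 fold change of 1.97 where all tested genes had 0.03. This step crosses the change of run, and 29.4% of tested genes were called higher in it. Sevir.1G107900 was at 7.97 ± 2.42 CPM at 15 DAS and 1.72 ± 0.427 CPM at 14 DAS (log2 2.23, SE 0.36, edgeR adjusted p = 2.39e-05). In 18 vs 15 DAS none of the 4 passed the test in edgeR, nor at an unadjusted p under 0.05, nor in DESeq2 (22.1% of tested genes were higher and 20.6% lower), and in 14 vs 10 DAS 1 was lower and none higher (Sevir.1G152600, log2 -1.28, edgeR adjusted p = 0.0003; none was higher at an unadjusted p under 0.05 or in DESeq2), whereas SvAn1 was higher there. The shares of tested genes were 20.7% higher and 21.5% lower in that comparison.

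For SvTs2 the short-chain dehydrogenase and jasmonate annotations were counted, since tassel seed 1 of maize, which acts in the same sex determination pathway, is a lipoxygenase of jasmonate synthesis. Neither list is a whole family, since the annotations were available only in part. Both dehydrogenases found were higher at 14 than at 10 DAS, like SvTs2 but by less (log2 0.43 and 0.96, edgeR adjusted p = 0.000209 and 4.44e-05), where 20.7% of tested genes were called higher. In 18 vs 15 DAS, where 20.6% of tested genes were called lower, 1 of them was lower (Sevir.1G254500, log2 -0.47, edgeR adjusted p = 8.66e-05) and the other, a TIC 32-like gene, was at log2 -0.03 and did not pass.

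Of 6 jasmonate annotations found only 2 passed the filter, and both were lower at 14 than at 10 DAS, where SvTs2 was higher and 21.5% of tested genes were lower. Of the 3 leaf markers that passed the filter 2 were lower there as well, and their part in the jasmonate values was not tested. The lipoxygenase gene (Sevir.1G049900) was at 38.0 ± 7.75 CPM at 14 DAS and 127 ± 14.4 CPM at 10 DAS (log2 -1.75, SE 0.20, edgeR adjusted p = 4.75e-07). The allene oxide synthase gene (Sevir.1G007100), which acts in the next step, was at 6.32 ± 0.669 CPM at 14 DAS and 16.4 ± 3.53 CPM at 10 DAS (log2 -1.37, edgeR adjusted p = 1.20e-05). Both were higher at 18 than at 15 DAS, as were 22.1% of tested genes. The lipoxygenase was at 181 ± 26.8 CPM at 18 DAS and 53.1 ± 10.9 CPM at 15 DAS (log2 1.77, edgeR adjusted p = 7.59e-07), and the allene oxide synthase was at 25.7 ± 8.71 CPM at 18 DAS and 15.6 ± 1.16 CPM at 15 DAS (log2 0.72, edgeR adjusted p = 0.00527). The other 4 had a mean of at most 0.477 CPM at any stage.

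The genes most like each member were taken as the 5 with the highest Pearson r of log2(CPM + 1) over the 23 libraries, among 21179 other genes. For SvAn1 they were Sevir.9G444800 (r = 0.980), Sevir.9G327100 (0.980), Sevir.8G174100 (0.980), Sevir.2G316400 (0.977) and Sevir.5G326900 (0.977), and 514 genes had r above 0.9. Sevir.9G327100, for example, was at 3.51, 2.58, 9.41, 40.0, 42.6 and 54.4 CPM in stage order, with its highest mean at 18 DAS where that of SvAn1 was at 15 DAS. The step between the runs enters these values, and with the values centred within each run none of the 5 stayed among the 5 most like SvAn1 (their r was 0.777 to 0.836).

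For SvTs2 the most alike genes were Sevir.4G158100 (r = 0.955), Sevir.6G172100 (0.950), Sevir.9G065300 (0.950), Sevir.4G089100 (0.949) and Sevir.7G233300 (0.948), and 42 genes had r above 0.9. Sevir.4G158100 was at 0.148, 1.31, 3.41, 2.73, 3.64 and 6.10 CPM in stage order. Centred within each run, 3 of the 5 stayed among the most alike, with r of 0.919 to 0.932 for all 5. By Spearman's rho only 1 of the 5 stayed for SvTs2, and none for SvAn1. The 2 genes themselves had r = 0.686 with each other, and 0.493 when centred within each run. The sources used here give no annotation for these 10 genes.

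Both genes lie on chromosome 9, as their locus names give it, and the 3 genes with the nearest locus numbers on either side of each were compared with them. Beside SvAn1, Sevir.9G265400 had no count in any library. At 14 vs 10 DAS 42.1% of tested genes were called in either direction, and at 18 vs 15 DAS 42.7%. Of the 5 other neighbours of SvAn1 only Sevir.9G265200 was called at 14 vs 10 DAS, at 42.2 CPM at 14 DAS and 30.5 CPM at 10 DAS (log2 0.47, edgeR adjusted p = 0.00292), and only Sevir.9G265000 at 18 vs 15 DAS (log2 -0.64, edgeR adjusted p = 0.00569). Of the 6 neighbours of SvTs2, 2 fell at 14 vs 10 DAS and the other 4 did not pass the test (Sevir.9G440000, log2 -1.02, and Sevir.9G440100, log2 -0.24, edgeR adjusted p = 0.000789 and 0.039). Sevir.9G440000 was at 29.3 CPM at 18 DAS and 6.06 CPM at 15 DAS (log2 2.30, edgeR adjusted p = 1.20e-07), the largest late change among the neighbours, and Sevir.9G439500 was the only other neighbour of SvTs2 called there, at 41.0 CPM at 18 DAS and 32.9 CPM at 15 DAS (log2 0.33, edgeR adjusted p = 0.0395).

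The replicate spread that edgeR fitted for SvAn1, a biological coefficient of variation of 15.7%, was above the median of 11.8% for the 1601 genes of like level. For SvTs2 it was 17.2%, near the median of 15.8% for 948 genes of like level.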

How the data were processed

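Salmon 0.8.1 and tximport were run by the authors against S. viridis primary transcripts (annotation v1.1), and they deposited expected counts (estimated counts) for 35214 genes in 23 libraries, not normalized. Here they were rounded to whole counts (8.76% of values had a fraction). The 21180 genes kept by filterByExpr were fitted with edgeR 4.0.16 in R 4.3.3 (TMM scaling, a mean for each stage, all libraries), tested two-sided by the quasi-likelihood F-test and adjusted by Benjamini-Hochberg at a threshold of 0.05. The SE of a fold change was derived from its F statistic.

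Alternatives were library size alone, DESeq2 1.42.0, filters of at least 1 count in any library or 10 in every library, the replicate block, fits of only the stages compared, robust estimation, and each library, or 15 DAS replicates 1 and 2 together, left out. Ratios used counts plus 0.5 and exact permutation tests. On simulated data for 18 vs 15 DAS, edgeR recovered 75.9% of 195 genes changed 2-fold among 20707, and 6.33% of the genes it called were false. All other genes had the same mean at every stage there. In the data 42.7% of tested genes were called for 18 vs 15 DAS, so these rates may not hold for the data.

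No labels tie replicate numbers across stages. Deviations of same-numbered libraries correlated above 0.1 in every pair only for 16 vs 15 DAS (0.137 to 0.649), where only 1 library correlated best with its own number. Libraries of a stage were checked for copies and all differed (chi-square per degree of freedom 3.684 to 44.96 over 33 pairs).

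The 2 genes and all lists were chosen with earlier results of these data known. Named beside the 2 genes are the 5 most alike for each, the 3 loci on either side, all genes of lists of at most 8, and, in the floral organ list, B-, C- and SEPALLATA-class genes and the extremes in 18 vs 15 DAS. Sequences were not used here.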

Additional observations from a re-analysis of the deposited data

How the results depend on the processing

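The rises of SvTs2 at 12 vs 10, 14 vs 12 and 14 vs 10 DAS and of SvAn1 at 14 vs 12, 14 vs 10 and 15 vs 14 DAS kept their direction and their side of the threshold under every alternative run, and both orders of the stages were the same with library size alone and without 15 DAS replicates 1 and 2 (these, and the list counts under the same settings and in DESeq2, were chosen after seeing the data). Without those 2 libraries together, the log2 fold changes that newly passed were -0.64 (SvTs2, 15 vs 14 DAS), -0.44 (SvAn1, 16 vs 15 DAS) and -0.56 (SvAn1, 18 vs 15 DAS), and SvAn1 among 15, 16 and 18 DAS had an adjusted p of 0.0153. For SvTs2 at 18 vs 15 DAS, the fit of only those stages gave 0.57 (edgeR adjusted p = 0.0716), no longer past the threshold, and leaving out 1 library gave 0.50 to 0.76. SvTs2 among 15, 16 and 18 DAS had an adjusted p of 0.0596 with library size alone, 0.0537 with all genes of at least 1 count, 0.0511 with the replicate block and 0.00652 to 0.118 with 1 library left out. With 1 library left out the other changed calls lay within -0.49 to -0.27 (SvTs2, 15 vs 14 DAS), 0.28 to 0.53 (SvTs2, 18 vs 16 DAS) and -0.41 to -0.19 (SvAn1, 18 vs 15 DAS). Genes called were 1739 to 4037 for 12 vs 10 DAS and 510 to 1341 for 14 vs 12 DAS with 1 library left out, against 3040 and 1116 with all, and 1676 for 14 vs 12 DAS with only those stages. The cause of these changes was not tested.

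The replicate block changed no other call of the 2 genes. In the ratio, differences within replicate number by exact sign-flip cannot go below p = 0.25 with 3 pairs or 0.125 with 4. Library size alone moved the median log2 fold change of all genes to 0.13 at 15 vs 14 DAS and -0.10 at 16 vs 15 DAS. The share of called genes that were higher was then 32.7% for 16 vs 15 DAS and 40.7% for 18 vs 15 DAS, against 48.2% and 51.8% with TMM. No 4-library stage held an outlying value of either gene or their ratio by Dixon's test. The libraries of 15 to 18 DAS held 58 to 140 counts of SvTs2 and 204 to 621 of SvAn1.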
